A study of Homo sapiens with 8 samples.

Results

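Integrins and the other receptors that hold a cell to its matrix were followed in a pair of human breast cancer cell lines. The cells were compared with and without depletion of GPX1, glutathione peroxidase 1, an enzyme that reduces hydrogen peroxide. The 31 genes were taken by symbol from the 23686 listed in the deposited tables. They comprise 13 integrin alpha subunits, 8 beta subunits and 10 other receptors, and all 31 were found. The groups were Hs578T cells given siGPX1, Hs578T controls, MDA-MB-231 cells given siGPX1 and MDA-MB-231 controls, with 2 RNA-seq libraries in each. Both lines are triple-negative and mesenchymal-like, so neither relies on oestrogen receptor, progesterone receptor or amplified HER2. The sample titles name an siRNA against GPX1, whereas the genotype tag calls the same samples Gpx1-/-, and the labels give neither the kind of control nor how many siRNAs were used. The labels do not say whether replicates came from separate cultures, so the p-values measure only the spread between these libraries.

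Each integrin is a pair of membrane proteins, an alpha and a beta subunit, that binds matrix outside the cell and couples through talin and kindlin to actin inside it. The alpha subunit largely sets the ligand: some pairs read collagen, some laminin, and others the arginine-glycine-aspartate (RGD) sequence of fibronectin and vitronectin. ITGB1 joins most alpha subunits, whereas ITGB4 joins only ITGA6. Discoidin domain receptors are collagen-activated kinases, dystroglycan (DAG1) binds laminin, syndecans carry heparan sulphate chains and act beside integrins, and CD44 binds hyaluronan. In breast cancer cells these receptors are known for their part in attachment, survival and invasion.

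Library totals lay between 12905808 and 14216365 expected counts, RSEM's estimates of reads per gene. GPX1 checked the labels, with 42 counts in each siGPX1 library of Hs578T, against 1117 and 1074 in its controls. In MDA-MB-231 it had 108 and 95 counts in siGPX1 libraries, against 2944 and 3223 in controls. Replicates differed most in Hs578T siGPX1, with a chi-square of 3.96 per gene, against 1.35 to 1.94 in the other 3 groups. The fit used below gives each gene 1 spread for all 4 groups, so its standard errors and p-values do not follow that difference. Among the defining markers, ESR1 reached at most 0.09 TPM in any library, and VIM had at least 2134 TPM in all 8. VIM does not stand for its list. In control MDA-MB-231, 9 of 10 mesenchymal markers were lower and 1 higher than in control Hs578T (edgeR adjusted p under 0.05). Of 9 tested luminal markers 6 were higher and 2 lower there, beside 43% of all genes higher and 38.6% lower. CD3E and MS4A1 of the leukocyte list were at 0 in every library, though its 12 genes summed to between 70.85 and 179.95 TPM. TPM, a share of all transcripts scaled for gene length, is used below for levels, and edgeR's fit of the counts for differences.

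The control cells carried different sets of matrix receptors. In MDA-MB-231 the laminin receptor ITGA6-ITGB4 was abundant and 2 alpha subunits, ITGA11 and ITGA8, had no reads at all. In Hs578T it was these and the fibronectin receptor ITGA5 that stood high, while ITGA6 was low and ITGB4 was at the edge of detection. Of the 28 members with enough counts to test, 9 were higher and 16 lower in control MDA-MB-231 than in control Hs578T at an adjusted p under 0.05 (Benjamini-Hochberg adjustment over 14249 genes of edgeR's quasi-likelihood test). That is 89.3% of the tested members, beside 81.6% of all genes tested, so the share itself is close to the background. The median absolute difference was 1.55 on the log2 scale over the members and 0.68 over all genes. By direction 43% of all genes were higher and 38.6% lower. Past 2-fold, 5 members were higher and 12 lower, beside 17.1% and 18.6% of all genes. All 6 tested RGD-binding members were lower in MDA-MB-231.

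ITGB4, the laminin-receptor beta subunit that links to keratin filaments, had 59.85 and 60.43 TPM in MDA-MB-231 controls, against 0.16 and 0.36 in Hs578T controls. Its partner ITGA6 had 320 and 306 TPM in MDA-MB-231 controls, against 8.17 and 7.73 in Hs578T controls. ITGB2, the leukocyte beta subunit, had 3.19 and 3.36 TPM in MDA-MB-231 controls and 0.19 and 0.26 in Hs578T controls. None of these genes overlapped between the lines. The differences, MDA-MB-231 over Hs578T, were 7.70 on the log2 scale for ITGB4, 5.16 for ITGA6 and 3.70 for ITGB2. ITGB4 and ITGB2 had few reads in Hs578T, so their folds are less exact than that of ITGA6.

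ITGA11, a collagen-binding alpha subunit best known in fibroblasts, had 0 TPM in both MDA-MB-231 controls, against 326 and 320 in Hs578T controls. ITGA8, an RGD-binding alpha subunit best known in mesenchymal cells of the kidney, had 0 TPM in both MDA-MB-231 controls, against 235 and 233 in Hs578T controls. Against a floor of 3 counts over the MDA-MB-231 control group, the 17440 counts of ITGA11 in the Hs578T controls make it at least 6830-fold lower in MDA-MB-231. On the same floor ITGA8, with 8179 counts in the Hs578T controls, was at least 3200-fold lower. DDR2, the discoidin receptor that responds to fibrillar collagen, had 0.45 and 0.33 TPM in MDA-MB-231 controls, against 60.23 and 60.05 in Hs578T controls. Its relative DDR1 was nearly level between the lines, at 46.42 and 47.44 TPM in MDA-MB-231 controls and 39.64 and 36.14 in Hs578T controls. The small DDR1 difference, 0.18 on the log2 scale, lost its call in 10 of 17 alternative settings. The lower calls of DAG1 (-0.12) and SDC3 (-0.21) were lost in 5 and 4 of 17, and the TPM of both genes overlapped between the control lines.

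**Figure D1:**
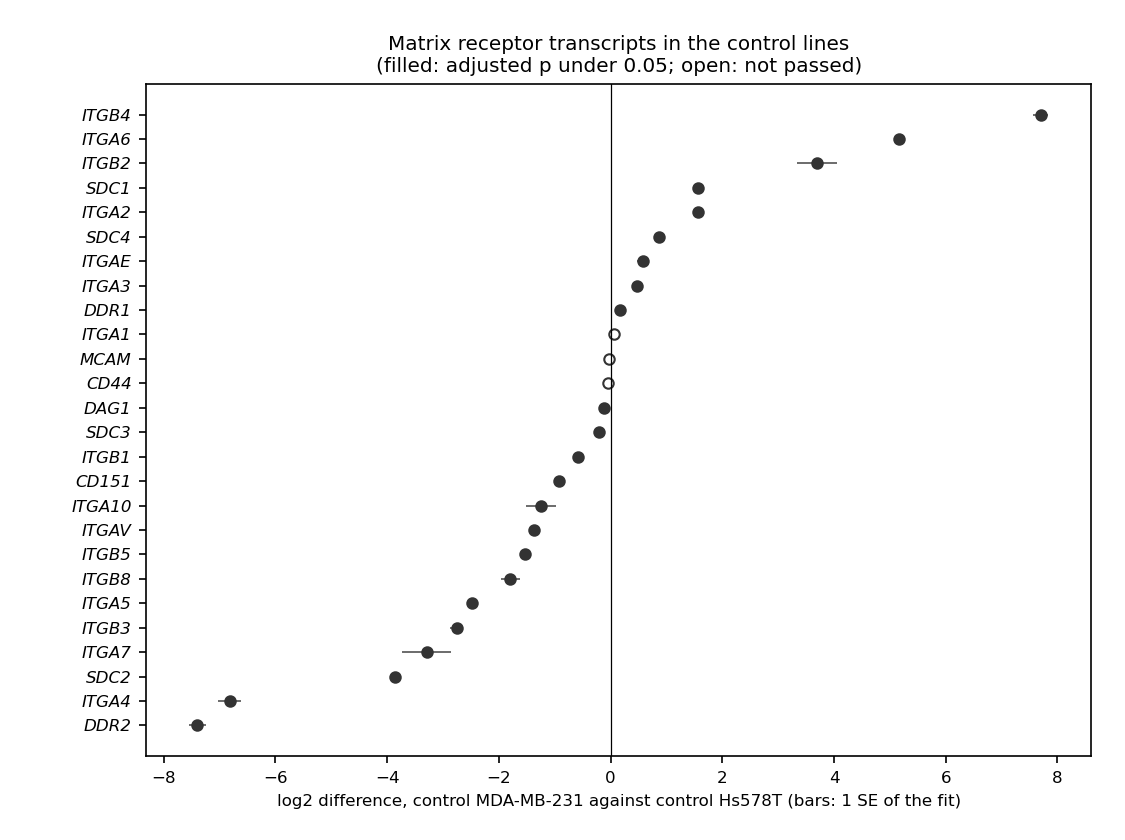
Difference between control MDA-MB-231 and control Hs578T on the log2 scale, with bars of 1 standard error, for the 26 tested members with reads in both lines, sorted by value; positive values are higher in MDA-MB-231 and filled points passed the test. ITGB4 and ITGA6 stand farthest to the higher side and DDR2, at -7.40, to the lower, and ITGA11 and ITGA8 are not drawn because they had no reads in MDA-MB-231.

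Among the other alpha subunits, ITGA4, which binds fibronectin and VCAM1, had 0.26 and 0.11 TPM in MDA-MB-231 controls, against 20.13 and 18.82 in Hs578T controls. ITGA5, which with ITGB1 forms the classical fibronectin receptor, had 202 TPM in both MDA-MB-231 controls, against 1021 and 1039 in Hs578T controls. ITGA2, the collagen receptor of epithelia and platelets, had 132 and 125 TPM in MDA-MB-231 controls, against 40.14 and 39.16 in Hs578T controls. Groups did not overlap for any of these, and ITGA2 was the one higher in MDA-MB-231. The proteoglycan-type receptors split as well. SDC2, a syndecan of mesenchymal cells, had 22.39 and 23.43 TPM in MDA-MB-231 controls, against 306 and 299 in Hs578T controls. SDC1, the main epithelial syndecan, had 71.25 and 73.20 TPM in MDA-MB-231 controls, against 21.96 and 22.33 in Hs578T controls. CD44 was not called, at 646 and 621 TPM in MDA-MB-231 controls and 612 and 598 in Hs578T controls, although its fitted difference of -0.05 passed as lower in 8 of 17 alternatives. ITGA1 and MCAM were not called either, with differences of 0.07 and -0.03 on the log2 scale. With log2(TPM + 1) in place of scaled counts the median of all genes in this comparison moved from 0.05 to 0.17, and the members' differences can be read against that shift.

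Summed within a group, the subunits show which of them held most of the integrin RNA. ITGB1 was 88.3 and 88.1% of beta-subunit TPM in MDA-MB-231 siGPX1 libraries, against 88.4 and 87.7% in their controls. In Hs578T it was 85.6 and 84.4% in siGPX1 libraries, against 84.9 and 84.5% in controls. The shared beta subunit thus held most of the beta RNA in all 8 libraries, and the lines differed in their alpha subunits and in the remaining beta subunits. ITGB5 was 7.58 and 8.13% of beta-subunit TPM in MDA-MB-231 controls, against 14.4 and 14.8% in Hs578T controls. ITGB4 was 3.61 and 3.73% in MDA-MB-231 controls, against 0.00675 and 0.0157% in Hs578T controls. In MDA-MB-231, ITGA3, a laminin receptor, was 40.5 and 40.4% of alpha-subunit TPM in siGPX1 libraries, against 44.0 and 45.1% in controls. ITGA6 was 27.9 and 28.4% in MDA-MB-231 siGPX1 libraries, against 22.4 and 21.5% in controls. In Hs578T ITGA6 was below 1% in all 4 libraries, and ITGA5 held the greatest share. ITGA5 was 39.8 and 42.0% of alpha-subunit TPM in Hs578T siGPX1 libraries, against 42.8 and 43.7% in controls. ITGAV, the partner of the RGD-binding beta subunits, was 17.9 and 15.6% in Hs578T siGPX1 libraries, against 12% in both controls. RNA levels say nothing of which pairs reached the surface.

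**Figure D2:**
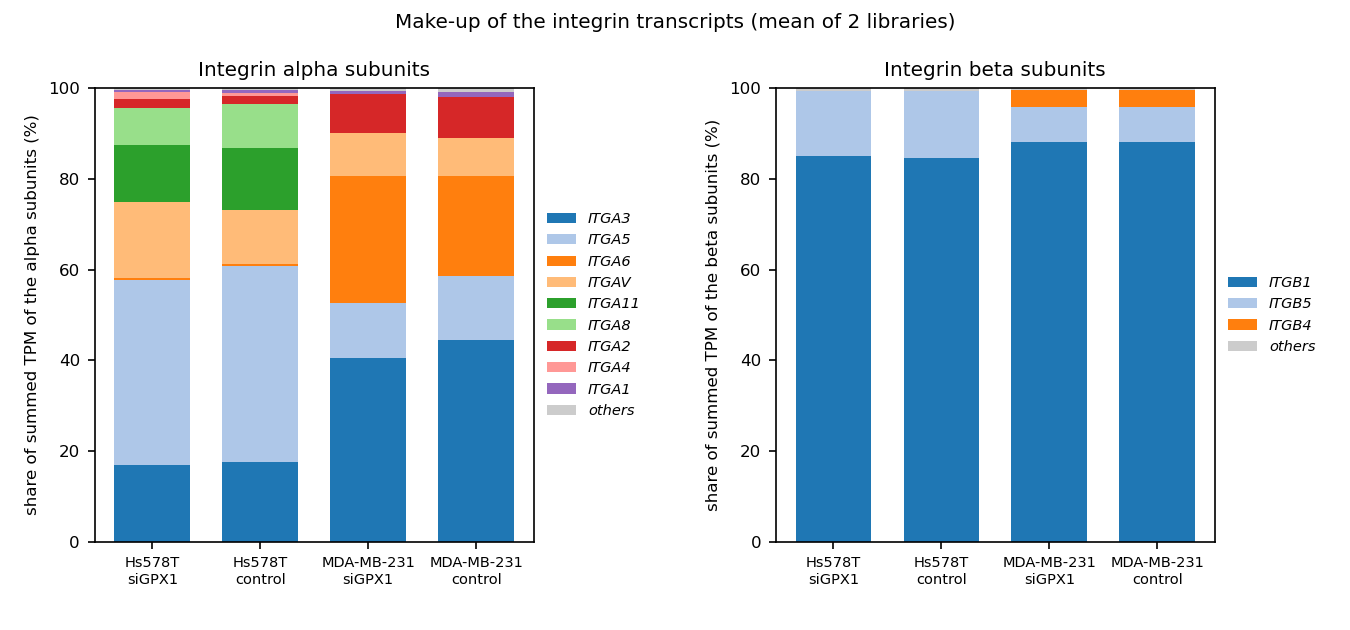
Share (%) of alpha-subunit TPM and of beta-subunit TPM held by each subunit in the 4 groups, as the mean of 2 libraries, with the siGPX1 group left of its control in each line. ITGA5 leads in Hs578T and ITGA3 with ITGA6 in MDA-MB-231, and ITGB1 holds most of the beta-subunit RNA in every group.

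By level, ITGB1 stood first in all 4 groups. In Hs578T siGPX1 libraries CD44 followed it and then ITGA5, with ranges apart. In Hs578T controls the order after ITGB1 was ITGA5, CD151, CD44 and ITGA3, and CD151, a tetraspanin that holds laminin-binding integrins, ranged from 870 to 891 TPM. Over 100 TPM stood 12 members in each Hs578T group and 11 in each MDA-MB-231 group. Under 1 TPM were 7 members in siGPX1 libraries and 5 in controls of Hs578T, and 10 in both groups of MDA-MB-231. ITGB6, the epithelial RGD-binding beta subunit, had at most 8 counts in a library, ITGA9 at most 2 and ITGB7, a lymphocyte subunit, at most 7. These 3 were not tested.

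**Figure D3:**
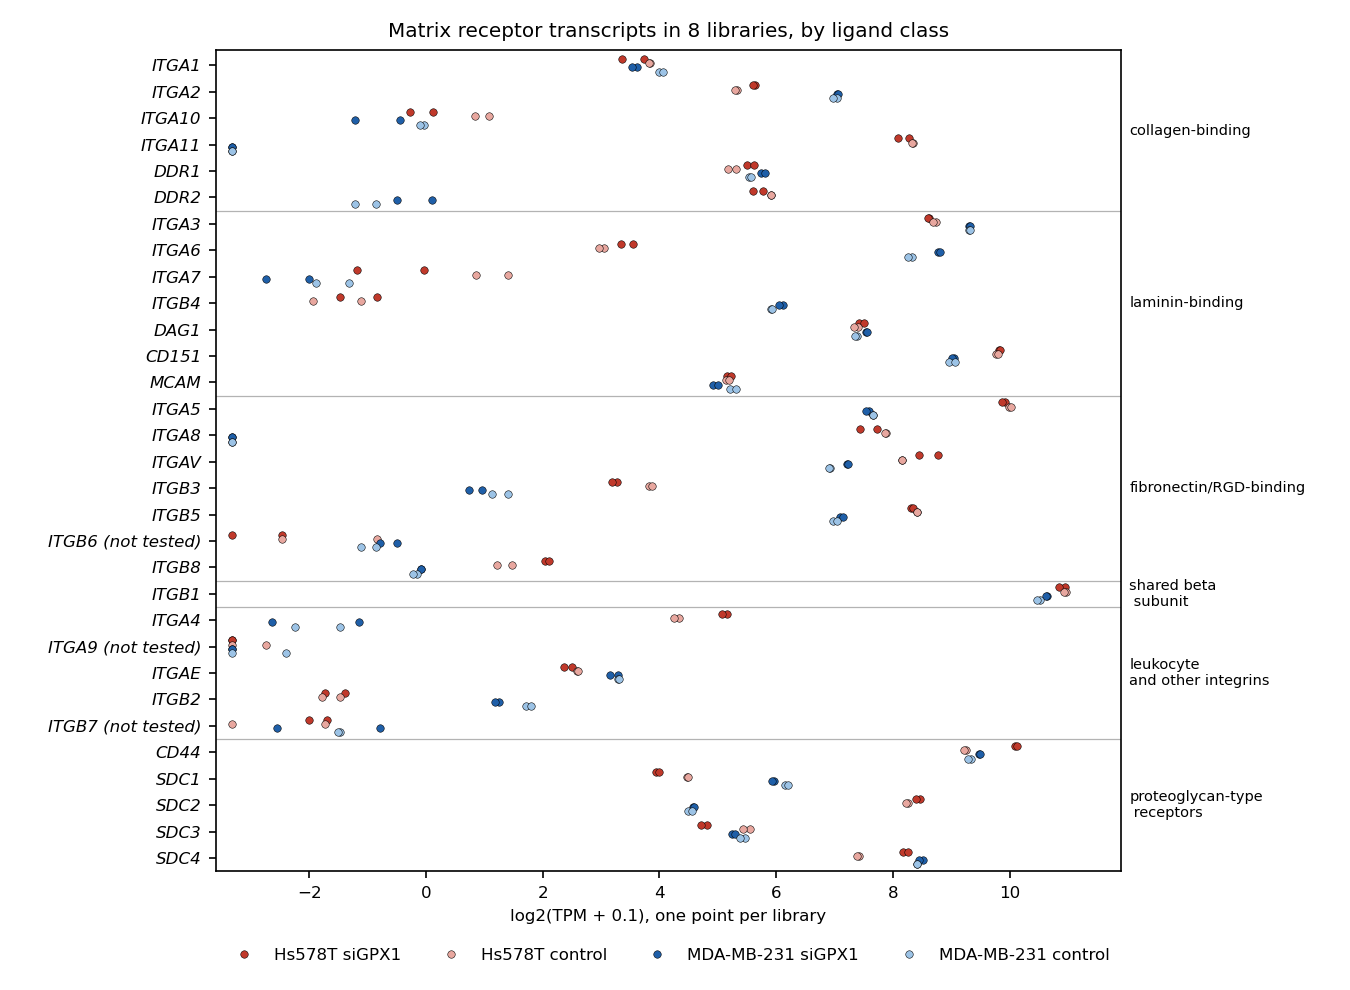
Levels of the 31 members as log2(TPM + 0.1), 1 point per library, grouped by ligand class, with siGPX1 libraries above the controls of the same line. ITGB1 stands highest in every library, and the points of ITGA11 and ITGA8 in MDA-MB-231 lie at the left edge, which is 0 TPM.

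With GPX1 depleted, Hs578T cells had more CD44, SDC4, ITGA4, ITGB8, ITGAV and ITGA6 RNA than controls and less SDC3, ITGB3, ITGA7 and ITGA10. In MDA-MB-231 ITGA6 and ITGAV were higher and ITGA1 lower. The median absolute change over the tested members was 0.17 on the log2 scale in MDA-MB-231 and 0.30 in Hs578T, beside 0.22 and 0.28 over all genes. In Hs578T 10 of the 28 tested members were higher and 7 lower, and 11 were not called. The called share was 60.7% of tested members beside 50.7% of all genes tested, and 28.6% of all genes were higher and 22.1% lower. In MDA-MB-231 8 members were higher and 6 lower, and 14 were not called, of which ITGA11 and ITGA8 had no reads. The called share was 50% beside 42.6% of all genes, with 20.7% higher and 21.9% lower. Both shares lie near the background, so the count alone says little about these genes. The median change over the members was 0.04 in Hs578T and 0.02 in MDA-MB-231 on the log2 scale, beside 0.04 and 0 over all genes. In Hs578T 2 members were called with a fall of over 2-fold, beside 3.66% of all genes (ITGA7 and ITGA10), and no called member passed a 2-fold rise, beside 2.77%. In MDA-MB-231 no called member passed 2-fold, beside 1.24% of all genes higher and 2.95% lower. Without Hs578T siGPX1 replicate 1 the Hs578T count was 21 and without replicate 2 it was 15, in place of 17, and without either MDA-MB-231 control 11 members were lower there in place of 7. In MDA-MB-231 the count was 14, and 9 without its control replicate 2, with 1 lower in place of 6. Without siGPX1 replicate 1 or 2 of that line 3 or 2 members were lower. In bulk RNA, a change per cell and a change in the number of cells that express a gene cannot be told apart.

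**Figure D4:**
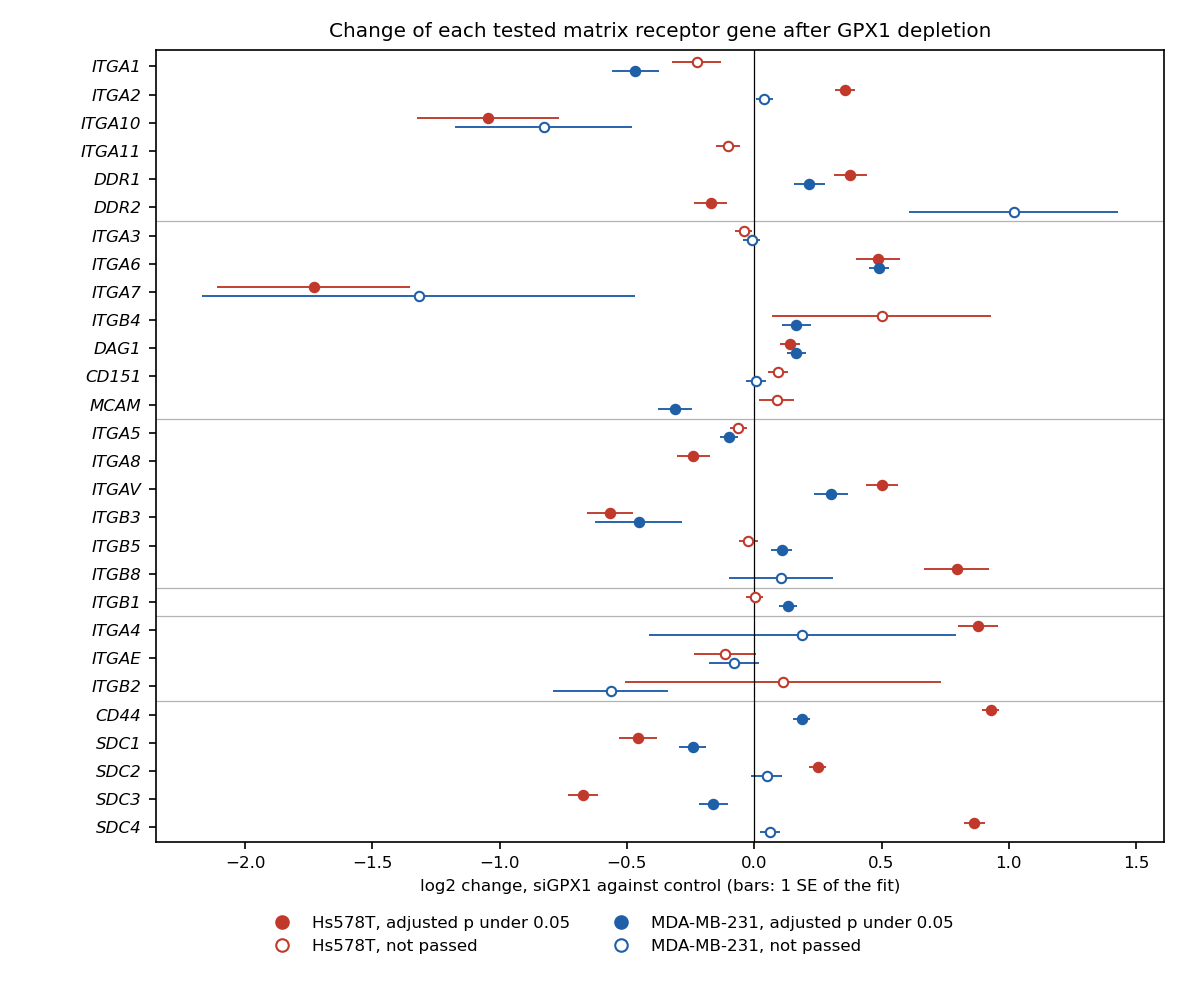
Log2 change of each tested member, siGPX1 over control, for Hs578T and for MDA-MB-231, with bars of 1 standard error and filled points for members that passed the test; ITGA11 and ITGA8 have no MDA-MB-231 point. CD44 and SDC4 lie higher in Hs578T than in MDA-MB-231, and ITGA6 is at 0.49 in both.

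Among the collagen receptors the alpha subunits differed among themselves. ITGA10, a collagen receptor of cartilage, had 0.73 and 0.98 TPM in Hs578T siGPX1 libraries, against 1.69 and 2.01 in controls. Both depleted libraries lay below both controls, and the change was -1.05 ± 0.28 (SE) on the log2 scale (adjusted p = 0.00524, edgeR's quasi-likelihood test). It rests on few reads, 9 to 55 counts over the 8 libraries. ITGA2 had 49.60 and 48.27 TPM in Hs578T siGPX1 libraries, against 40.14 and 39.16 in controls. It rose there by 0.36 ± 0.04 on the log2 scale, and in MDA-MB-231, where its level is higher, it had 132 and 134 TPM in siGPX1 libraries, against 132 and 125 in controls. The MDA-MB-231 difference was not called (0.04 on the log2 scale, edgeR adjusted p = 0.389).

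ITGA1, which prefers basement membrane collagen, had the greatest called change of a collagen receptor in MDA-MB-231. It had 12.13 and 11.47 TPM in MDA-MB-231 siGPX1 libraries, against 15.90 and 16.56 in controls, so the groups did not overlap. It fell by 0.47 ± 0.09 on the log2 scale there (edgeR adjusted p = 6.26e-04). In Hs578T the siGPX1 libraries had 13.14 and 10.18 TPM and the controls 14.15 and 14.08. That difference of -0.23 ± 0.10 was not called (edgeR adjusted p = 0.0605), and it passed as lower in 7 of 18 alternatives. DDR1 rose in both lines, by 0.38 ± 0.06 in Hs578T and 0.22 ± 0.06 in MDA-MB-231 on the log2 scale. DDR2 fell in Hs578T, with 54.82 and 48.49 TPM in siGPX1 libraries, against 60.23 and 60.05 in controls. That change, -0.17 ± 0.06, lost its call without Hs578T siGPX1 replicate 2 (-0.10, edgeR adjusted p = 0.223), and without either Hs578T control (-0.18 each, adjusted p = 0.0897 and 0.138). Alternatives gave it an adjusted p of up to 0.424, leaving aside the test against a minimum fold. In MDA-MB-231 DDR2 had 0.97 and 0.61 TPM in siGPX1 libraries, both above the 0.45 and 0.33 of the controls. That difference, 1.02 ± 0.41, was not called (edgeR adjusted p = 0.0585) and passed as higher in 4 of 18 alternatives, on 6 to 17 counts in a library. ITGA11 had 309 and 272 TPM in Hs578T siGPX1 libraries, both below the 326 and 320 of the controls. Its difference of -0.10 was not called (edgeR adjusted p = 0.0912) but passed as lower in 9 of 18 alternatives.

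Among the laminin receptors ITGA6 rose in both lines. It had 10.01 and 11.52 TPM in Hs578T siGPX1 libraries, against 8.17 and 7.73 in controls. In MDA-MB-231 it had 435 and 447 TPM in siGPX1 libraries, against 320 and 306 in controls. In each line the depleted libraries lay above the controls. The log2 change was 0.49 ± 0.09 in Hs578T (edgeR adjusted p = 1.88e-04) and 0.49 ± 0.04 in MDA-MB-231 (edgeR adjusted p = 6.66e-08), or 1.40-fold in both. The difference between the lines was 0.00 ± 0.10 on that scale. Its partner ITGB4 had 69.51 and 66.11 TPM in MDA-MB-231 siGPX1 libraries, against 59.85 and 60.43 in controls. ITGB4 rose by 0.17 ± 0.06 (edgeR adjusted p = 0.0281), a call lost without MDA-MB-231 control replicate 1 (0.20, adjusted p = 0.0836) or siGPX1 replicate 1 (0.18, adjusted p = 0.112). Over all alternatives without a minimum fold its adjusted p reached 0.690.

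ITGA7, the laminin receptor of muscle, had 0.34 and 0.87 TPM in Hs578T siGPX1 libraries, against 2.56 and 1.70 in controls. It fell by 1.73 ± 0.38 on the log2 scale (edgeR adjusted p = 0.00125), the greatest fall among the tested members in Hs578T. Its counts were low, between 1 and 57 in the 8 libraries. ITGA3, the most abundant laminin-binding alpha subunit, was called in neither line, although its Hs578T difference of -0.04 passed as lower in 5 of 18 alternatives. It had 394 and 390 TPM in Hs578T siGPX1 libraries and 427 and 410 in controls, and in MDA-MB-231 633 and 636 in siGPX1 libraries and 631 and 640 in controls. CD151 was also not called in either line, and its Hs578T difference of 0.09 passed as higher in 2 of 18 alternatives.

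DAG1, dystroglycan, had 185 and 187 TPM in MDA-MB-231 siGPX1 libraries, against 166 and 162 in controls. It rose there by 0.17 ± 0.04 and in Hs578T by 0.14 ± 0.04 on the log2 scale. The Hs578T call was lost in 11 of 18 alternatives, among them those without Hs578T control replicate 2 (0.11, edgeR adjusted p = 0.0967), without Hs578T siGPX1 replicate 2 (0.08, adjusted p = 0.0572) and without any 1 of the MDA-MB-231 libraries, which left 0.09 in each case. Its adjusted p reached 0.164 with the line fitted alone. Without MDA-MB-231 control replicate 1 the Hs578T changes of other members moved down as well. Those of ITGA1, ITGA3, ITGA5 and ITGA11 went from -0.23, -0.04, -0.06 and -0.10 to -0.27, -0.09, -0.11 and -0.15. The shift was thus not particular to DAG1. MCAM, an immunoglobulin-type receptor for laminin alpha 4, had 30.27 and 31.86 TPM in MDA-MB-231 siGPX1 libraries, against 36.95 and 39.65 in controls. It fell by 0.31 ± 0.07 (edgeR adjusted p = 0.00148), a call lost without MDA-MB-231 control replicate 2 (-0.20, adjusted p = 0.0644) or siGPX1 replicate 1 (-0.22, adjusted p = 0.0571).

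The RGD-binding members split in Hs578T. ITGAV had 435 and 348 TPM in Hs578T siGPX1 libraries, against 286 and 285 in controls. The depleted replicates differed from each other more than the controls did, and both lay above them. ITGAV rose by 0.50 ± 0.06 (edgeR adjusted p = 7.76e-06), and in MDA-MB-231 by 0.30 ± 0.07, with 148 and 149 TPM in siGPX1 libraries, against 121 and 119 in controls. Both standard errors come from the spread shared by the 4 groups, so they do not show the wider spread in Hs578T. ITGB8, which with ITGAV binds latent TGF-beta, had 4.0 and 4.23 TPM in Hs578T siGPX1 libraries, against 2.69 and 2.23 in controls. It rose by 0.80 ± 0.13 on the log2 scale (edgeR adjusted p = 7.97e-05), the greatest called change of this class in Hs578T. In MDA-MB-231 ITGB8 stayed below 1 TPM in all 4 libraries.

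ITGB3, the vitronectin-receptor beta subunit, had 9.57 and 9.01 TPM in Hs578T siGPX1 libraries, against 14.05 and 14.49 in controls. It fell by 0.57 ± 0.09 on the log2 scale (edgeR adjusted p = 7.77e-05), while its partner ITGAV rose. In MDA-MB-231 it had 1.84 and 1.56 TPM in siGPX1 libraries, against 2.08 and 2.55 in controls, a fall of 0.45 ± 0.17 (edgeR adjusted p = 0.0477). That MDA-MB-231 call was lost in 15 of 18 alternatives, with an adjusted p of up to 0.486. Without MDA-MB-231 control replicate 2 the value was -0.24 and without siGPX1 replicate 2 it was -0.29. It was also lost without siGPX1 replicate 1 (-0.53) or either Hs578T control (-0.45 each).

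ITGA8 had 211 and 172 TPM in Hs578T siGPX1 libraries, against 235 and 233 in controls, and fell by 0.24 ± 0.06 on the log2 scale. ITGA5 had 192 and 187 TPM in MDA-MB-231 siGPX1 libraries, against 202 in both controls. Its fall of 0.10 ± 0.03 (edgeR adjusted p = 0.0300) lost the call without any 1 of the 4 MDA-MB-231 libraries, where it lay between -0.07 and -0.03 and the adjusted p reached 0.644. ITGB5, the other main partner of ITGAV, rose by 0.11 ± 0.04 in MDA-MB-231 (edgeR adjusted p = 0.0458). That call was lost without MDA-MB-231 control replicate 1 (0.12, adjusted p = 0.0894), siGPX1 replicate 2 (0.13, adjusted p = 0.0737) or either Hs578T control (0.11 each). ITGB5 was not called in Hs578T. ITGA5 had 967 and 935 TPM in Hs578T siGPX1 libraries, against 1021 and 1039 in controls, a difference of -0.06 on the log2 scale that was not called (edgeR adjusted p = 0.122) but passed as lower in 12 of 18 alternatives.

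ITGB1 had 1595 and 1585 TPM in MDA-MB-231 siGPX1 libraries, against 1464 and 1419 in controls. The groups did not overlap, and ITGB1 rose by 0.13 ± 0.03 on the log2 scale (edgeR adjusted p = 0.00561). In Hs578T it had 1973 and 1844 TPM in siGPX1 libraries and 2011 and 1943 in controls, which overlap. ITGA4 was the most changed member of the remaining integrins, with 35.37 and 33.69 TPM in Hs578T siGPX1 libraries, against 20.13 and 18.82 in controls. It rose by 0.88 ± 0.08 on the log2 scale, or 1.84-fold (edgeR adjusted p = 1.75e-07), and in MDA-MB-231 it was at 0.35 TPM or less in every library. ITGAE and ITGB2 were called in neither line, and the MDA-MB-231 difference of ITGB2, -0.56, passed as lower in 3 of 17 alternatives.

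All 5 proteoglycan-type receptors changed in Hs578T, 3 higher and 2 lower, where 50.7% of all genes were called. CD44 had 1093 and 1119 TPM in Hs578T siGPX1 libraries, against 612 and 598 in controls, with the replicates of each group close together. It rose by 0.93 ± 0.03 on the log2 scale, or 1.91-fold (edgeR adjusted p = 3.96e-12). In MDA-MB-231 CD44 had 715 and 721 TPM in siGPX1 libraries, against 646 and 621 in controls, a rise of 0.19 ± 0.03 (edgeR adjusted p = 2.84e-04). So the depleted Hs578T libraries stood above all the others. SDC4, the syndecan of focal adhesions, had 289 and 307 TPM in Hs578T siGPX1 libraries, against 172 and 168 in controls. It rose by 0.87 ± 0.04 on the log2 scale (edgeR adjusted p = 1.27e-10). In MDA-MB-231 it had 365 and 351 TPM in siGPX1 libraries and 340 and 343 in controls, a difference that was not called (0.06, edgeR adjusted p = 0.239).

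SDC3, the syndecan best known from neurons and muscle, went the other way. It had 28.14 and 26.16 TPM in Hs578T siGPX1 libraries, against 46.78 and 42.93 in controls, and fell by 0.67 ± 0.06 on the log2 scale (edgeR adjusted p = 1.41e-07). In MDA-MB-231 it had 37.78 and 39.03 TPM in siGPX1 libraries, against 44.03 and 41.37 in controls. That fall of 0.16 ± 0.06 (edgeR adjusted p = 0.0322) lost its call without any 1 of the 4 MDA-MB-231 libraries, where it lay between -0.15 and -0.07 and the adjusted p reached 0.497. SDC1 had 61.92 and 60.44 TPM in MDA-MB-231 siGPX1 libraries, against 71.25 and 73.20 in controls. SDC1 fell by 0.24 ± 0.05 there (edgeR adjusted p = 0.00193), a call lost without control replicate 2 (-0.16, adjusted p = 0.0741) or siGPX1 replicate 2 (-0.17, adjusted p = 0.0691), and by 0.46 ± 0.08 in Hs578T. SDC2 rose by 0.25 ± 0.03 in Hs578T and was not called in MDA-MB-231. Summed over the 5 genes, the class had 1793 ± 19.5 TPM in Hs578T siGPX1 libraries and 1144 ± 19.1 in controls, and 1199 ± 5.94 in MDA-MB-231 siGPX1 libraries and 1113 ± 15.8 in controls (SD, n = 2 each).

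**Figure D5:**
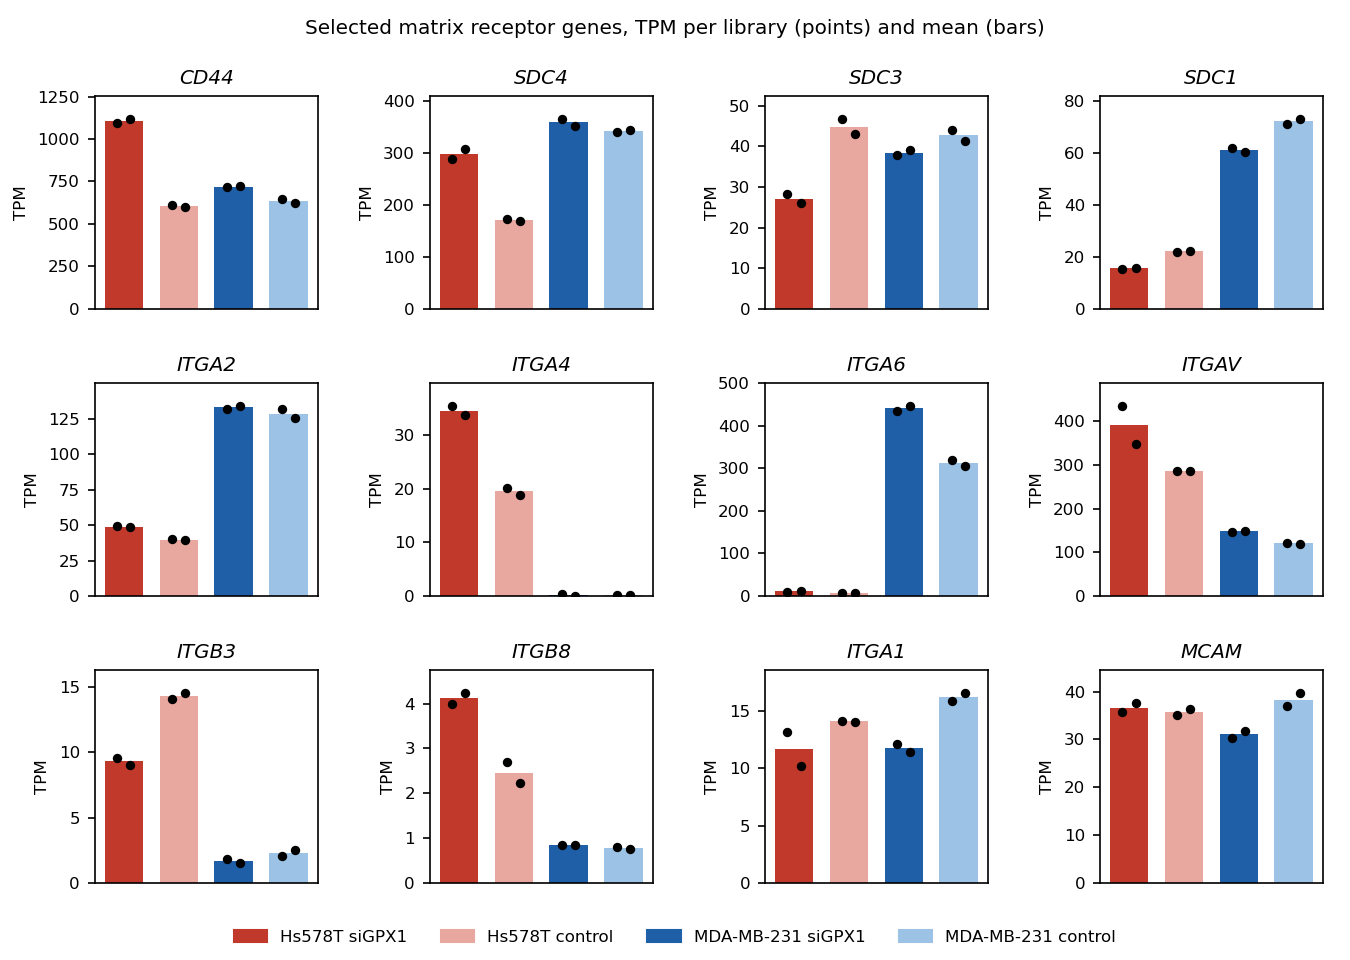
TPM of 12 members, a panel for each gene, with siGPX1 libraries left of the controls of the same line; points are single libraries and bars their mean. CD44 and SDC4 separate the Hs578T groups far more than the MDA-MB-231 groups, and ITGA6 separates both.

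Across the lines, 5 members were higher in both (DDR1, ITGA6, DAG1, ITGAV and CD44) and 3 lower in both (ITGB3, SDC1 and SDC3), and no member was called in opposite directions. Of all genes tested, 14.9% were higher in both, 14.3% lower in both and 1.54% opposite, so these counts too are read against many such genes. The lines use separate control libraries. The difference between the changes, MDA-MB-231 minus Hs578T, was called for 5 of 28 members, 1 higher and 4 lower. That is 17.9% of them beside 17% of all genes tested, where 6.32% were higher and 10.7% lower. It was -0.80 ± 0.06 on the log2 scale for SDC4 and -0.74 ± 0.05 for CD44, whose rises were thus greater in Hs578T (edgeR adjusted p = 2.94e-07 and 7.25e-08). It was 0.51 for SDC3, whose fall was greater in Hs578T. For ITGA2 it was -0.32, a call lost without MDA-MB-231 siGPX1 replicate 1 (-0.21, edgeR adjusted p = 0.0523). For MCAM it was -0.40, lost without MDA-MB-231 control replicate 2 (-0.24, adjusted p = 0.155), siGPX1 replicate 1 (-0.26, adjusted p = 0.151) or siGPX1 replicate 2 (-0.34, adjusted p = 0.0610). No member had a called difference past 2-fold, beside 0.463% of all genes higher and 1.05% lower. Members called in a single line whose difference was not called, such as ITGA4, ITGB8 and ITGA1, are not shown to differ between the lines. For ITGB1 the difference of 0.13 was not called (edgeR adjusted p = 0.0791) but passed in 12 of 17 alternatives, among them 6 of the 8 that left out a library, and that of ITGB5, also 0.13, in 7 of 17. Without Hs578T siGPX1 replicate 2 the count was 10 in place of 5.

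A search of the 3′ UTRs was made because an earlier search of these data had found 7-base words that went with falls and rises. A word of the first kind is GGGCATC. The other of that kind overlaps it in 6 bases and reads GGCATCA. A word of the second kind is ACTTCGA. The other of that kind overlaps it in the same way and reads TACTTCG. All were searched on the transcript strand. The sequences came from GENCODE 29, and 31 of 31 members had a 3′ UTR to search. GGCATCA was found in 3 members, ITGA1, ITGB3 and the untested ITGA9, and the other 3 words were found in no member. They are printed because ITGA1 and ITGB3 are among the fallers of their classes, with the matched word in capitals.
ITGA1: tagttttgtgtGGCATCAcagtgatttgt
ITGB3: cactcccacttGGCATCAttcacagcaag
ITGA9: aaaccagccttGGCATCAccaccagcaga
The matches lie on the plus strand of GRCh38 at chr5:52953236-52953242 for ITGA1, chr17:47311583-47311589 for ITGB3 and chr3:37821825-37821831 for ITGA9, each in the 3′ UTR. The counts were made on build hg19, and GRCh38 is used for the sequences alone.

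A word of the first kind was in 7.14% of the 28 tested members, beside 13.6% of 13102 tested genes with a searched 3′ UTR. A word of the second kind was in 2.48% of those genes. Over all genes with a word of the first kind the median change was -0.18 in Hs578T and -0.21 in MDA-MB-231 on the log2 scale, and over genes with neither kind 0.07 and 0.01. The words were picked in these same data because they went with such changes, so the medians only describe that choice and are no separate test of it. SDC1, which like ITGB3 was called lower in both lines, held none of the words in 1969 bases searched. SDC3, also called lower in both, had only 76 bases to search, so the lack of a word there says little. The MDA-MB-231 calls of ITGB3, SDC1 and SDC3 were each lost in some alternatives, as given above. The run GGGCATCA, which joins both words of the first kind, was in 5 of 6 GPX1 transcripts of GENCODE 29, though not in the GPX1 3′ UTR searched. TACTTCGA, which joins those of the second kind, was in none of them. The relation of these words to the siRNA used was not tested. A match is a description of letters, not of a working site.

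Genes of the proteins that couple integrins to actin changed in mixed directions. The counts of this list and the next ones stand beside 50.7% of all genes called in Hs578T and 42.6% in MDA-MB-231. Of 22 tested activators and adaptors 6 were higher and 7 lower in Hs578T, and 7 higher and 5 lower in MDA-MB-231. PXN, the adaptor paxillin, had 87.46 and 83.13 TPM in Hs578T siGPX1 libraries, against 31.23 and 31.32 in controls. In MDA-MB-231 it had 307 and 301 TPM in siGPX1 libraries, against 129 and 128 in controls. PXN rose by 1.5 in Hs578T and 1.24 in MDA-MB-231 on the log2 scale. ACTN1, an alpha-actinin that crosslinks actin, fell by 0.71 and 0.85. TNS3, a tensin, fell by 0.81 in Hs578T and 0.26 in MDA-MB-231, and VCL, vinculin, rose by 0.23 and 0.38. Of 6 tested tetraspanins, which gather integrins in the membrane, 1 was higher and 3 lower in each line, and the 3 were TSPAN4, CD63 and CD82 in both. TSPAN4 fell by 0.95 in Hs578T and 0.68 in MDA-MB-231.

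Of 10 collagen chains 5 were higher and 1 lower in each line. COL5A2 rose by 0.59 in Hs578T and 0.94 in MDA-MB-231, and COL5A1 by 0.20 and 0.49. COL3A1 rose by 0.73 and COL4A1 fell by 0.39 in Hs578T, and COL4A2 rose by 0.24 and COL6A3 fell by 0.54 in MDA-MB-231. All 10 were lower in control MDA-MB-231 than in control Hs578T. Of 10 tested laminin chains 2 were higher and 2 lower in Hs578T and 3 higher and 3 lower in MDA-MB-231. LAMC1, the gamma chain of most laminins, fell by 0.76 and 0.61, and LAMA4 rose by 1.67 and 1.34, in Hs578T and MDA-MB-231 in that order. LAMA3 rose by 0.50 in MDA-MB-231. Of 9 tested RGD ligands 5 were higher and 2 lower in Hs578T, and 3 higher and 4 lower in MDA-MB-231. FN1, fibronectin, had 15068 and 13174 TPM in Hs578T siGPX1 libraries, against 11039 and 10720 in controls. TNC rose by 1.14 in Hs578T and fell by 0.45 in MDA-MB-231. In both lines EDIL3 rose, by 0.56 in Hs578T and 0.30 in MDA-MB-231, and THBS1 fell, by 0.16 and 0.38. CTGF also fell in both, by 0.49 in Hs578T and 0.78 in MDA-MB-231.

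Some markers of other cell states changed with the depletion, and their counts too stand beside 50.7% of all genes called in Hs578T and 42.6% in MDA-MB-231. Of 9 tested luminal markers 3 were higher and 1 lower in Hs578T and 6 higher and 1 lower in MDA-MB-231, and KRT18, MUC1 and KRT8 rose in both. In Hs578T KRT18 rose by 1.62, MUC1 by 2.24 and KRT8 by 0.38 on the log2 scale, and in MDA-MB-231 by 0.65, 1.23 and 0.75. All 10 luminal markers together had 979 and 1074 TPM in Hs578T siGPX1 libraries and 366 and 370.3 in controls. In MDA-MB-231 they had 2846 and 2920 TPM in siGPX1 libraries and 1808 and 1789 in controls. Of 10 mesenchymal markers 7 were higher and 1 lower in Hs578T and 5 higher in MDA-MB-231, with the other 5 not called there. DCN rose by 1.67 and THY1 fell by 1.26 in Hs578T, and both had 0 TPM in every MDA-MB-231 library. CDH2 rose by 0.61 in Hs578T and 0.98 in MDA-MB-231, and VIM by 0.26 and 0.35. All 10 mesenchymal markers together had 28768 and 25679 TPM in Hs578T siGPX1 libraries and 22702 and 22467 in controls. In MDA-MB-231 they had 5294 and 5361 TPM in siGPX1 libraries and 4584 and 4572 in controls. Of 12 leukocyte markers 2 could be tested: CD68 fell in Hs578T and CD14 rose in MDA-MB-231, and 7 or 8 of the 12 were at 0 in each library. Of 8 endothelial markers 3 could be tested, with 3 higher in Hs578T and 1 higher and 1 lower in MDA-MB-231, and PECAM1 changed by 0.83 and -0.57. Levels were low, as all 8 together had at most 14.94 TPM in an Hs578T library and 3.44 in one of MDA-MB-231. The part of these shifts in the receptor changes was not tested.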

How the data were processed

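Gene tables of 8 RNA-seq libraries were used. Per the file headers, the authors deposited an expected count and a TPM value per gene, with 23686 symbols listed. FastQC, RSEM 1.2.12 and build hg19 are named in the submitters' processing notes. The aligner is not given in the sources used here, and neither is the use of strand. Expected counts share reads that fit several genes, and 94.7 to 94.9% of the detected ones lay within 0.005 of a whole number. They were rounded. Groups came from the sample titles.

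Genes were kept by edgeR's filterByExpr, which left 14249, of which 28 were members. Counts were scaled by TMM, and 1 model with 4 group means was fitted to the 8 libraries (4 residual degrees of freedom, common biological coefficient of variation 0.034). Each comparison used edgeR's quasi-likelihood test, and a gene was called where its p, adjusted over all genes tested by Benjamini-Hochberg, was under 0.05. The standard error was taken as |log2 change| divided by √F, and rests on a spread per gene that all 4 groups share. R 4.3.3, edgeR 4.0.16, limma 3.58.1, DESeq2 1.42.0 and Python 3.11.15 were used, and the fit was tested on simulated data.

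The members and lists were chosen with earlier results of these data known, and so were the 7-base words. Values per library are given for the most changed called member of each ligand class in each line, for members with a called difference between the lines of over 0.5, and for the 3 greatest differences per direction between the controls. Others were added after their values were seen. From each list up to 3 genes per line with the smallest p were named. Some list genes that this names are not reported here. 3′ UTRs of at least 30 bases were built from GENCODE 29, with 30 members joined by accession and DDR2 by symbol. Alternatives were DESeq2 size factors, DESeq2, limma-voom, no filter, a filter of 5 CPM in at least 2 libraries, limma on log2(TPM + 1) and log2(TPM + 0.1), a replicate block, a test against a 1.2-fold change, each line alone, and leaving out each library. The floor for 0 counts covers counting error only.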

Additional observations from a re-analysis of the deposited data

Results flagged for a closer look

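The siGPX1 change differed between the lines, by a test of the difference itself (edgeR's quasi-likelihood test, Benjamini-Hochberg adjusted over 14249 genes), for 5 of 28 tested members. In each case the value is the log2 change in MDA-MB-231 minus that in Hs578T, and the called share is close to that of all genes, as given above. For SDC4 the difference was -0.805 (adjusted p = 2.94e-07), with both depleted libraries above both controls in each line. For CD44 it was -0.744 (adjusted p = 7.25e-08), again with depleted libraries above controls in each line. For SDC3 it was 0.511 (adjusted p = 5.62e-04), with depleted libraries below controls in each line. For MCAM it was -0.399 (adjusted p = 0.00918), with the depleted libraries below the controls in MDA-MB-231 and overlapping them in Hs578T. For ITGA2 it was -0.318 (adjusted p = 7.40e-04), with depleted libraries above controls in Hs578T and overlapping them in MDA-MB-231 on scaled counts.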

How the results depend on the processing

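No result reversed its direction while called. Of the calls, 11 of 17 in Hs578T, 2 of 14 in MDA-MB-231 (ITGA1 and ITGA6), 3 of 5 between the lines (CD44, SDC3 and SDC4) and 22 of 25 between the controls were kept under every alternative that tested the member. ITGA7 and ITGA10 are among those kept in Hs578T and between the controls, and ITGB2 between the controls. The 5 CPM filter, which tested 25 members, left these low-count genes out. In MDA-MB-231 the test against a 1.2-fold change left 2 members, 1 higher and 1 lower, since it asks for a larger change, and leaving out each library gave 9 to 14. For the difference between the lines the count was 9 with the 5 CPM filter, 8 with log2(TPM + 1) and 3 with the 1.2-fold test, and 5 to 10 leaving out each library, and apart from the 1.2-fold test the cause was not tested. Leaving out each library gave 15 to 21 in Hs578T and 23 to 26 between the controls. The split of higher and lower calls in MDA-MB-231, 8 and 6, was 8 and 3 with DESeq2 size factors, 8 and 2 with DESeq2 and 11 and 3 with the 5 CPM filter. Between the lines, 1 and 4, it was 3 and 4 with DESeq2 size factors, 2 and 3 with DESeq2 and 5 and 4 with the 5 CPM filter. With that filter the line differences of ITGB1, ITGB5 and SDC1 moved together, from 0.13, 0.13 and 0.21 to 0.24, 0.24 and 0.32. The Hs578T changes of ITGA1, ITGA3, ITGA5 and ITGA11 moved from -0.23, -0.04, -0.06 and -0.10 to -0.28, -0.09, -0.11 and -0.15. A shift shared by several genes can thus change the call of a small difference. Whether the scaling of the counts made it was not tested. With the replicate number as a block the counts were 18 in Hs578T, 11 in MDA-MB-231, 5 between the lines and 23 between the controls. Deviations of same-numbered libraries correlated at -0.035 for Hs578T and 0.055 for MDA-MB-231. With 2 libraries per group these values show no sign of pairing by number, but they cannot exclude it. The Hs578T call of ITGA8 was lost with DESeq2 (adjusted p = 0.132), and that of ITGA4 with log2(TPM + 0.1) (adjusted p = 0.176). Leaving aside the 1.2-fold test, these and the highest adjusted p printed above for MCAM, SDC1, ITGB5 and ITGA2 are the highest of any alternative. Depth limits ITGA7, ITGA10, ITGB2 in both lines, ITGB4 in Hs578T, and ITGA4 with DDR2 in MDA-MB-231, which have few counts.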
